A study of Sus scrofa with 13 samples.

Results

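The genes described here encode 10 enzymes that make serine or carry its carbon through folate metabolism, and all 10 had a row among the 27339 gene rows of the count tables. SHMT2 was chosen by its counts in hypoxia and normoxia: in earlier results of these data it was 1 of 4 genes past the test when libraries were paired. The other 9 were added by pathway. The contrast between hypoxia and normoxia was therefore already in use when the set was made, and its values are given below as a description of these enzymes.

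The mark profiled was 5hmC (5-hydroxymethylcytosine), which TET enzymes make by oxidising methylcytosine in DNA. The cells were mesenchymal stem cells cultured from abdominal fat taken from female domestic pigs that ate a high-cholesterol diet and had a coil-induced stenosis of the renal artery. Hypoxia meant 48 hours at 1% oxygen (6 libraries), and normoxia culture at 20% oxygen (6 libraries). Cells of both groups came from animals with the same diet and stenosis, were expanded in medium with platelet lysate, and were labelled with the same cell type. Each group holds 1 library for each of the numbers 110, 16, 21, 33, 49 and 4 that open the sample titles, but the labels do not say what the numbers mean.

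Fragments bound by an anti-5hmC antibody were sequenced, so a count at a gene measures captured DNA and not its transcript. Each library's table summed to between 15569948 and 27428482 reads. Of these, 263578 to 714002 (1.69 to 2.89%) were counted to a gene row and are called gene reads here. Another 88 to 93% matched no counted feature, and such reads may still lie within a gene, such as in an intron. The share of gene reads therefore does not measure how much of the mark lies in genes. The normoxia library of number 21 had the fewest gene reads and the highest share of reads of low alignment quality, 10.3%. Because the cultures were profiled in bulk, fewer cells carrying the mark at a gene and less of it per cell cannot be told apart. All 6 mesenchymal stromal marker genes listed here (THY1, NT5E, ENG, CD44, ITGB1 and PDGFRB) carried enough reads to be tested, but so did 5 of 6 immune and 5 of 5 endothelial markers, and 5hmC at a gene is no check of cell identity.

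Cells make serine from a glycolytic intermediate through PHGDH, PSAT1 and PSPH. Serine hydroxymethyltransferases then split serine into glycine and a carbon unit carried on folate, SHMT2 in mitochondria and SHMT1 in the cytosol. The mitochondrial enzymes MTHFD2 and MTHFD1L turn that unit into formate, the cytosolic MTHFD1 takes formate back into folate, ALDH1L2 burns the unit to carbon dioxide while making NADPH, and GLDC frees a further carbon unit from glycine. These carbon units feed purine, thymidylate and methionine synthesis, and methionine supplies the methyl groups from which methylcytosine, and after oxidation 5hmC, is made.

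SHMT2, the gene around which the set was built, is described first. In the order 110, 16, 21, 33, 49 and 4, SHMT2 had 57, 34, 70, 37, 84 and 66 reads in hypoxia, against 28, 32, 10, 9, 54 and 28 reads in normoxia. Scaled to gene reads with edgeR's TMM factors, on the usual CPM scale, these were 141, 105, 192, 72.2, 183 and 120 CPM in hypoxia, against 66.5, 74.8, 48.3, 24.8, 108 and 43.2 CPM in normoxia. The hypoxia library was the higher one in 6 of 6 numbers, although the groups overlapped, since the hypoxia library of number 33 lay below 2 of the normoxia libraries and that of number 16 below normoxia 49. The ratio of hypoxia to normoxia was smallest for number 16 (1.41) and largest for number 21 (3.98). The lowest counts, 10 reads in normoxia 21 and 9 reads in normoxia 33, carry exact 95% Poisson intervals of 4.80 to 18.4 and 4.12 to 17.1 reads, which cover counting error only.

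**Figure D1:**
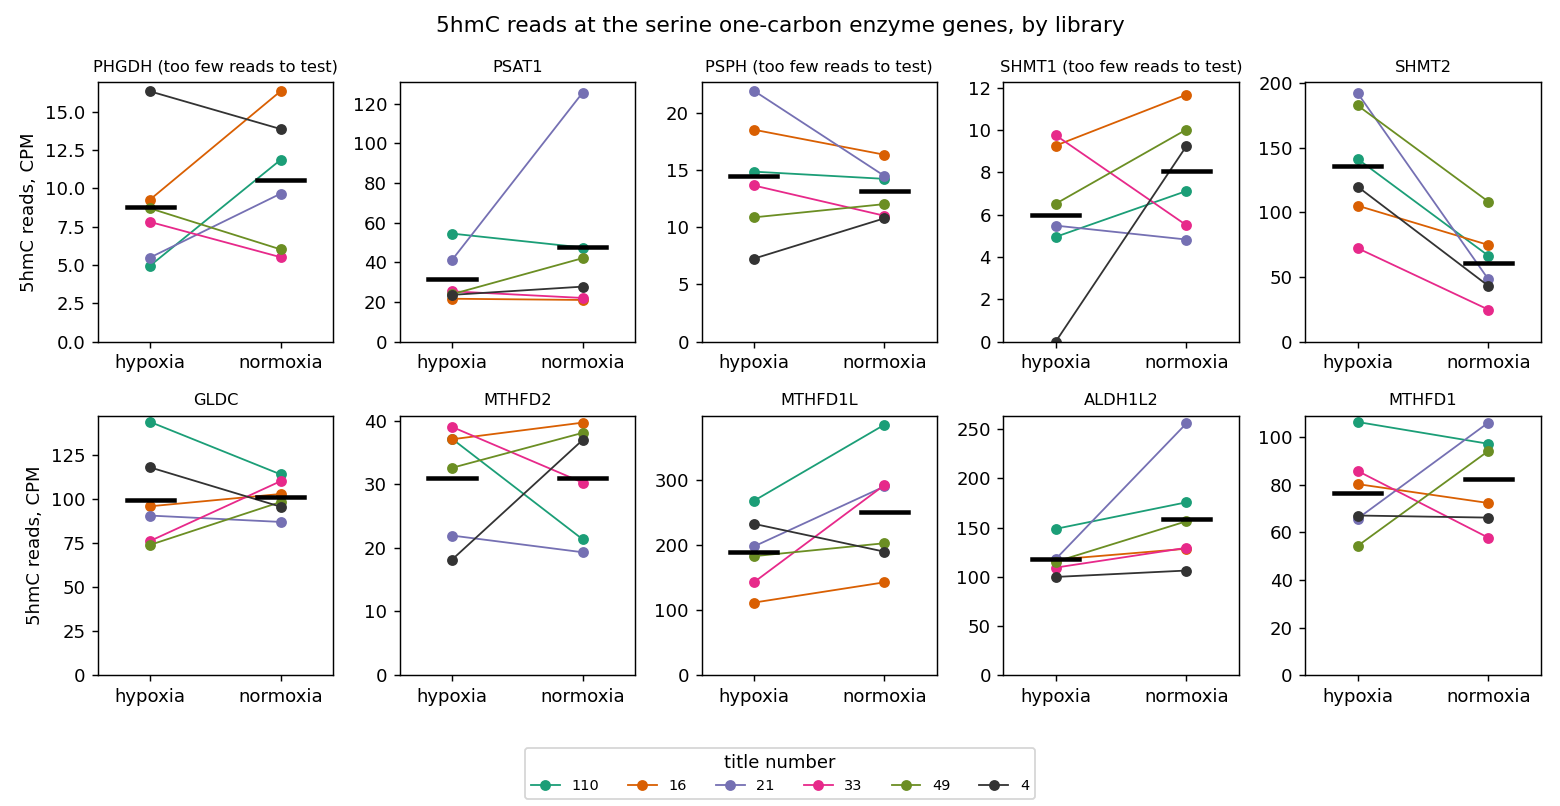
5hmC reads (CPM, linear axes from 0) at each of the 10 enzyme genes in the 6 hypoxia (left) and 6 normoxia (right) libraries. Each line joins the libraries of 1 title number and black bars are group means. SHMT2 is the panel in which all 6 lines run downward to normoxia, and ALDH1L2 the one in which all 6 run upward.

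SHMT2 averaged 135 ± 46.1 CPM in hypoxia and 61.0 ± 29.1 CPM in normoxia (SD, n = 6 each). Its log2 fold change in edgeR's quasi-likelihood fit, hypoxia over normoxia, was 1.13 ± 0.309 (SE) without regard to the title numbers and 1.15 ± 0.215 with the number as a block. The Benjamini-Hochberg adjusted p over all 11868 tested genes was 1 without the block and 0.0237 with it, and the blocked value is the one for which SHMT2 was singled out. In all, 0 of 11868 genes (0%) passed without the block and 4 (0.0337%) with it. Without the block 324 genes (2.73%) had an unadjusted p under 0.05, and DESeq2's Wald test also called 0 genes, with 511 at an unadjusted p under 0.05. Nothing further is read from these counts for the enzymes, because the set was built around that call.

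The direction of the SHMT2 difference was the same in every alternative run, but its adjusted p was not always under 0.05. When each of the 12 libraries was left out in turn the log2 fold change stayed between 0.98 (without normoxia 33) and 1.38 (without normoxia 49), and it was 1.23 among the 8 libraries of sequencing lane 7 and 1.04 among the 4 of lane 8. In the blocked fit the adjusted p was 0.0234 without number 16 and 0.0248 without number 21, but 0.138 without 110, 0.189 without 33, 0.0894 without 49 and 0.110 without 4. When libraries were scaled to all reads of the table in place of gene reads, an alternative chosen after the data were seen, the blocked log2 fold change was 1.15 and the adjusted p 0.254. Summed reads of the 5 adipocyte markers also lay higher in hypoxia in 6 of 6 numbers (262 to 494 CPM in hypoxia, 166 to 333 in normoxia) and those of the 5 smooth muscle and pericyte markers lower in 6 of 6 (95.7 to 217 CPM in hypoxia, 105 to 341 in normoxia). No gene on either list was at 0 in all libraries, but only 2 of 5 on each had enough reads to be tested. Of those, 0 passed in either fit, and a sum can rest on 1 gene. Summed reads of the mesenchymal stromal markers lay higher in hypoxia in 1 of 6 numbers, of the immune markers in 4 and of the endothelial markers in 3. The part of any of these 5 lists in the SHMT2 result was not tested.

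None of the other 6 enzymes with enough reads passed in either fit. All 6 had a negative log2 fold change, where 43.4% of all tested genes had a positive one. The values of MTHFD1, MTHFD2 and GLDC were smaller in size than their SE. In hypoxia MTHFD1 was higher in 4 of 6 numbers, MTHFD2, PSAT1 and GLDC in 3, MTHFD1L in 1 and ALDH1L2 in 0. The median over the 7 tested enzymes was -0.091 without the block, against -0.043 over all tested genes. Leaving SHMT2 out, the 6 other enzymes had a median of -0.24 (-0.23 in the blocked fit, against -0.021 over all tested genes). For all 10 genes the hypoxia and normoxia libraries overlapped, as they did for most tested genes, since 0.0421% had every hypoxia library above every normoxia library and 0.059% every one below. Of all tested genes, 1.68% were higher in hypoxia in every number, as SHMT2 was, and 2.59% were lower in every number, as ALDH1L2 was.

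Among the enzymes that make serine, only PSAT1, the phosphoserine aminotransferase, had enough reads to be tested. It had 21.6 to 54.5 CPM in hypoxia with a median of 24.6, and 21.0 to 126 CPM in normoxia with a median of 34.9. The highest value, 126 CPM, came from normoxia 21, and hypoxia was the higher library in 3 of 6 numbers. The log2 fold change was -0.48 ± 0.400 (SE), and without normoxia 21 it was -0.035. PHGDH, the dehydrogenase that opens the pathway, had 24 reads over the 6 hypoxia libraries and 28 over the 6 normoxia libraries, with exact 95% Poisson intervals of 15.4 to 35.7 and 18.6 to 40.5. PSPH, the phosphatase that closes it, had 36 and 33 reads in hypoxia and normoxia, with intervals of 25.2 to 49.8 and 22.7 to 46.3. At both genes the intervals of hypoxia and normoxia overlapped, and no fold change is given. These intervals are for summed reads and cover counting error only, not the spread between libraries.

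SHMT1, the cytosolic partner of SHMT2, carried 15 reads in hypoxia and 22 in normoxia over 6 libraries each, with exact 95% Poisson intervals of 8.40 to 24.7 and 13.8 to 33.3. These intervals too leave out the spread between libraries. Hypoxia 4 had 0 SHMT1 reads, which allows up to 5.44 CPM at 3 counts, and no other library had more than 6. The 2 hydroxymethyltransferase genes thus gave very different amounts of information, and no fold change is given for SHMT1. GLDC, the decarboxylase of the glycine cleavage system, had 73.9 to 144 CPM in hypoxia (median 93.2) and 86.9 to 114 CPM in normoxia (median 100.5). Every normoxia library lay within the range of the hypoxia libraries, which was the wider one, with a log2 fold change of -0.028 ± 0.223 (SE) that was 0.018 with library size as the only scaling.

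**Figure D2:**
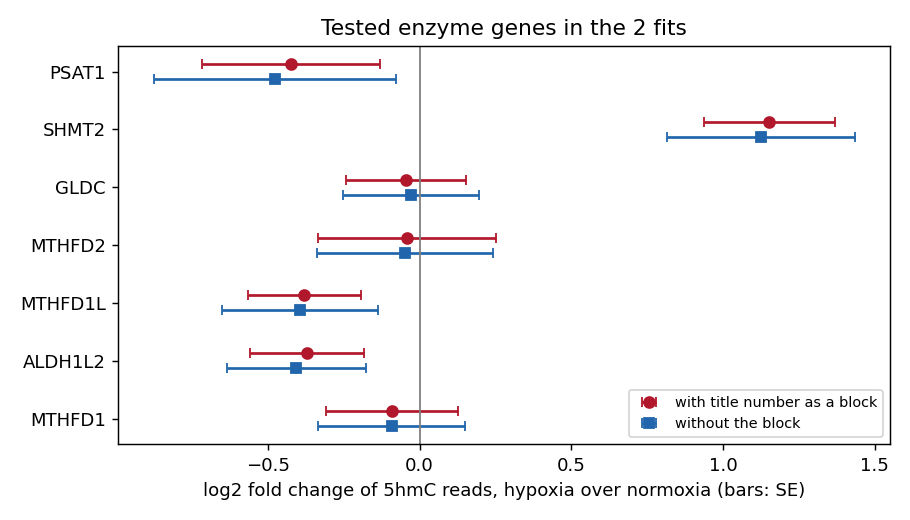
Log2 fold change of 5hmC reads, hypoxia over normoxia, for the 7 tested enzymes from edgeR, with (circles) and without (squares) the title number as a block. Bars are SE. SHMT2 stands at 1.15 and 1.13, and the other 6 lie between -0.48 and -0.028.

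Of the folate enzymes that act on the carbon unit, ALDH1L2, the mitochondrial formyltetrahydrofolate dehydrogenase, was the most even in direction. It had 99.8 to 149 CPM in hypoxia with a median of 116, and 106 to 256 CPM in normoxia with a median of 143. Hypoxia was the lower library in 6 of 6 numbers, from 100 against 106 CPM for number 4 to 118 against 256 CPM for number 21. Its log2 fold change was -0.41 ± 0.229 (SE) without and -0.37 ± 0.188 with the block (edgeR adjusted p 1 and 0.707), and -0.24 without normoxia 21.

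MTHFD1L, the mitochondrial formate-releasing synthetase, had 111 to 268 CPM in hypoxia with a median of 190, and 142 to 385 CPM in normoxia with a median of 246. It was lower in hypoxia in 5 of 6 numbers, number 4 being the exception with 232 CPM in hypoxia and 190 in normoxia. Its log2 fold change was -0.39 ± 0.257 (SE) without and -0.38 ± 0.185 with the block (edgeR adjusted p 1 and 0.700). It was -0.61 within lane 7 and 0.12 within lane 8, so the direction did not hold in both lanes, and it was -0.21 without normoxia 110.

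MTHFD2, the mitochondrial dehydrogenase and cyclohydrolase, carried 4 to 24 reads per library. It averaged 31.0 ± 8.83 CPM in hypoxia and 31.0 ± 8.85 CPM in normoxia (SD, n = 6 each), with a log2 fold change of -0.047 ± 0.290 (SE) that was 0.26 within lane 7. MTHFD1, the cytosolic enzyme with 3 activities, averaged 76.7 ± 18.4 CPM in hypoxia and 82.4 ± 19.5 CPM in normoxia, with a log2 fold change of -0.091 ± 0.242 that was 0.054 within lane 7. For both genes the groups covered nearly the same range.

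Within single numbers the 7 tested enzymes did not move together. Hypoxia was the higher library for 5 of them in number 110, 3 in 16, 3 in 21, 4 in 33, 1 in 49 and 4 in number 4, while 47.7 to 50.5% of all tested genes were higher in hypoxia in each number. In number 49 the 1 higher enzyme was SHMT2.

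A second comparison asked whether 5hmC reads at these genes differed between title numbers once the oxygen level was taken into account. SHMT2 was singled out in a fit that used the numbers, so its values are given as a description: both libraries of number 49 were high (183 CPM in hypoxia, 108 in normoxia) and both of number 33 low (72.2 in hypoxia, 24.8 in normoxia). Of the other 6 tested enzymes, which were added by pathway, PSAT1 was the 1 that passed edgeR's quasi-likelihood test of the number terms, where 12.8% of all tested genes passed. For PSAT1 the means over both libraries ran from 21.3 CPM in number 16 to 83.4 CPM in number 21, with an adjusted p of 0.0418. That call was absent in 6 of 9 alternatives, with adjusted p up to 0.194 without number 21. MTHFD1L had mean values of 127 CPM in number 16 and 326 CPM in number 110, with an adjusted p of 0.0653. It was 0.368 without number 110 and 0.412 without number 16, but 0.0131 without number 21 and 0.0198 without number 4. MTHFD1, MTHFD2, GLDC and ALDH1L2 had adjusted p of 0.364 to 0.782. Numbers 49 and 4 were sequenced on lane 8 and the others on lane 7, so the lane is part of the difference between numbers and cannot be told apart from it.

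**Figure D3:**
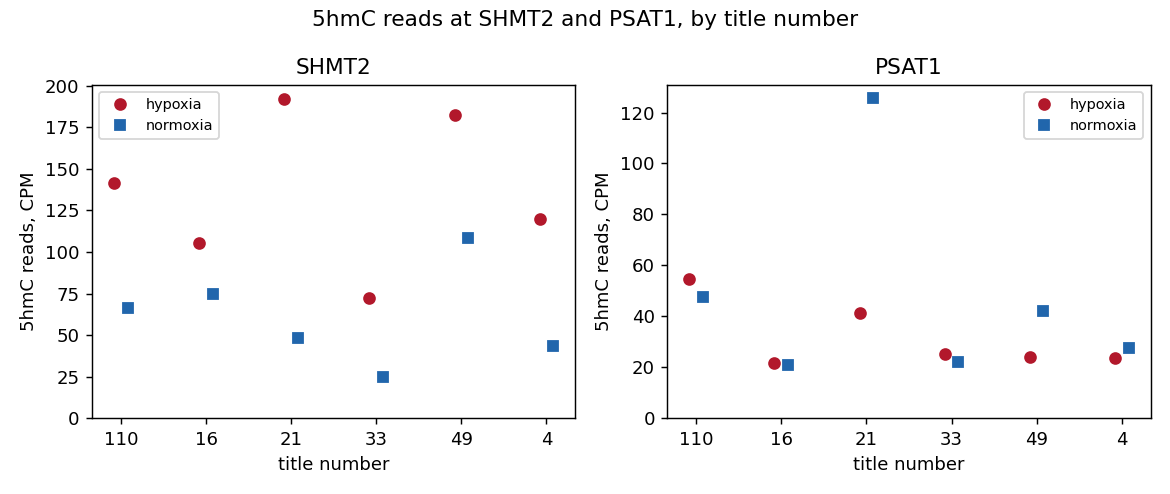
5hmC reads (CPM, linear axes from 0) at SHMT2 and PSAT1 for each title number, with hypoxia as circles to the left of normoxia squares. SHMT2 has its highest mean over both libraries in number 49 and its lowest in number 33, and PSAT1 has 1 library far above the others, normoxia 21 at 126 CPM.

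The genes beside SHMT2 were examined next, a step chosen after its values were seen. Neighbours were taken as the 2 count-table rows on either side in the gene order of RefSeq assembly Sscrofa11.1. RefSeq was used for gene order and for overlaps of gene spans, and it may differ from the annotation behind the counts. NDUFA4L2, the next gene after SHMT2, encodes a mitochondrial protein related to a respiratory chain subunit and is known as hypoxia-induced in human cells. NDUFA4L2 had 129, 105, 145, 99.6, 187 and 132 CPM in hypoxia, against 59.4, 98.1, 72.4, 77.1, 118 and 86.3 CPM in normoxia, in the same order of numbers. Hypoxia was higher in 6 of 6 numbers, and the groups overlapped only through normoxia 49. The means were 133 ± 31.6 CPM in hypoxia and 85.3 ± 20.8 CPM in normoxia (SD, n = 6 each), and the log2 fold change was 0.63 ± 0.233 (SE) without and 0.63 ± 0.196 with the block, which did not pass (edgeR adjusted p 1 and 0.454).

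NXPH4, a neurexophilin gene whose RefSeq span overlaps that of SHMT2, averaged 101 ± 24.6 CPM in hypoxia and 76.5 ± 34.3 CPM in normoxia, higher in hypoxia in 4 of 6 numbers. Its log2 fold change was 0.35 ± 0.293 (SE) without the block. Reads in the shared stretch cannot be assigned to 1 of the 2 genes by strand, since they come from DNA. LRP1, a lipoprotein receptor gene, had a log2 fold change of -0.021 ± 0.300 (0.077 with the block), and STAC3, a muscle calcium-channel adaptor gene, -0.14 ± 0.313. SHMT2 lay between 2 rows with positive values of smaller size, and the rows beyond them had values below 0 without the block. The values of LRP1 and STAC3 were smaller in size than their SE, so no order by position is read from them.

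**Figure D4:**
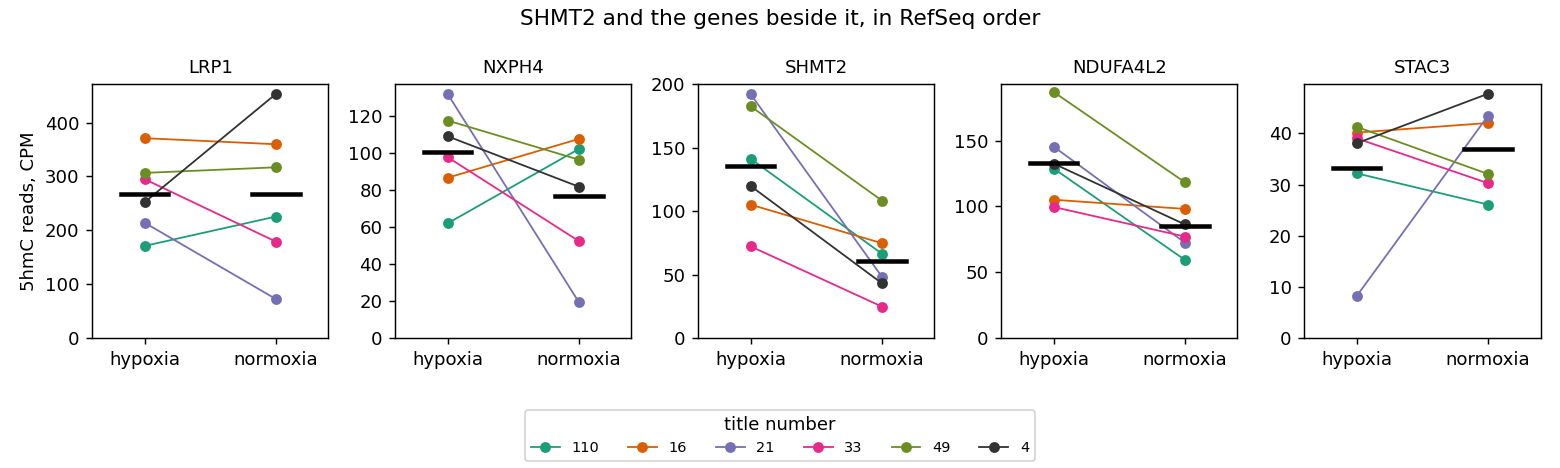
5hmC reads (CPM, linear axes from 0) at SHMT2 and its 2 neighbours on each side, in RefSeq order from left to right, in hypoxia (left) and normoxia (right) libraries joined by title number. Black bars are group means. All 6 lines run downward to normoxia for SHMT2 and for NDUFA4L2.

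By the same rule the 10 enzymes had 40 neighbours, of which 24 had enough reads. None of the 24 passed in either fit, and their log2 fold changes ran from -0.58 to 0.63 without the block. NDUFA4L2 had the highest of these values and was the 1 tested neighbour higher in hypoxia in 6 of 6 numbers. Lower in hypoxia in 6 of 6 numbers were 3 tested neighbours, WASHC4 beside ALDH1L2 (log2 fold change -0.48 ± 0.272, SE), MOB1A beside MTHFD2 (-0.58 ± 0.308) and LOC106508506 beside SHMT1 (-0.41 ± 0.263). Of the other neighbours of ALDH1L2, C5H12orf45 and SLC41A2 were lower in hypoxia in 5 of 6 numbers and APPL2 was higher in 5 of 6 (50.1 ± 12.8 CPM in hypoxia, 42.5 ± 14.2 in normoxia, SD, n = 6 each). PLEKHG1 beside MTHFD1L had a log2 fold change of 0.47 ± 0.258 (SE), opposite in direction to the -0.39 of MTHFD1L. It and NDUFA4L2 were the 2 of 24 with an unadjusted p under 0.05 in edgeR's blocked fit, where 7.09% of all tested genes had one. The RefSeq spans of 6 of the 10 enzymes (SHMT1, SHMT2, MTHFD1, MTHFD1L, MTHFD2 and ALDH1L2) overlapped a neighbouring row. Reads marked ambiguous, 0.0050 to 0.0095% of each library's reads, were kept out of the gene rows. How reads in shared stretches were assigned is not given, so some reads of these enzymes may belong to the neighbouring row.

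The genes whose log2 CPM over the 12 libraries was most like that of SHMT2 were APLN, P2RX1, AP3D1, WDR54 and LOC102165609, with Pearson's r of 0.913, 0.893, 0.887, 0.885 and 0.869 and Spearman's rho of 0.846, 0.874, 0.895, 0.867 and 0.860. They were picked as the highest among all tested genes, and the libraries share 2 oxygen groups and 6 numbers, so no test is given. APLN, which encodes the peptide ligand apelin, averaged 61.4 ± 33.4 CPM in hypoxia and 32.7 ± 16.1 CPM in normoxia (SD, n = 6 each), higher in hypoxia in 6 of 6 numbers. P2RX1, an ATP-gated channel gene, averaged 129 ± 46.8 CPM in hypoxia and 77.1 ± 24.6 CPM in normoxia, also higher in 6 of 6. LOC102165609 was higher in 6 of 6 numbers, and AP3D1 and WDR54 in 5 of 6. Likeness was taken over both oxygen groups, so higher values in hypoxia follow in part from the choice of these genes. None of the 5 passed between hypoxia and normoxia. The other tested enzymes had r of -0.289 to -0.021 with SHMT2 and ranked between 6221 and 9357 in likeness.

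Further genes of the pathway were taken from 6 lists of 75 genes in all, of which 71 had a row and 40 enough reads. Of these 40, 0 passed in either direction in either fit, against 0% of all genes without and 0.0337% with the block. Without the block the log2 fold change was above 0 for 10 genes (25%) and below 0 for 30, where 43.4% of all tested genes were above 0. Their median without the block was -0.12, where that over all genes was -0.043. With the block 13 were above 0 and 27 below, and the median was -0.11, against -0.021 over all tested genes. The share of all tested genes above 0 was not taken with the block. With an unadjusted p under 0.05 in the blocked fit there were 2 of 40, where 7.09% of all genes had one.

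NFE2L2, encoding the oxidative-stress factor NRF2, which regulates serine synthesis genes in human cells, had 182 to 317 CPM in hypoxia (mean 252 ± 57.1, SD, n = 6) and 168 to 596 CPM in normoxia (mean 382 ± 145, SD, n = 6). It was lower in hypoxia in 5 of 6 numbers, with a log2 fold change of -0.59 ± 0.253 (SE) without and -0.53 ± 0.181 with the block (edgeR adjusted p 1 and 0.529). The same list of 8 tested regulators held EIF2AK3, a kinase of the stress response upstream of ATF4, at 0.26 ± 0.246, with 6 values negative and 2 positive. EIF2AK3 was at 0.052 within lane 7 and 0.74 within lane 8, and NFE2L2 at -0.56 and -0.58. ATF4 itself had too few reads to be tested, 13 over the hypoxia libraries and 4 over the normoxia libraries.

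In the folate cycle, 2 of 5 tested genes had positive and 3 negative values. FPGS, which adds glutamates to folate, stood at -0.56 ± 0.332 (SE) and ALDH1L1, the cytosolic counterpart of ALDH1L2, at -0.48 ± 0.355. Both were nearer 0 within lane 7 (-0.26 and -0.080) than within lane 8 (-0.86 and -0.98), and ALDH1L1 was -0.18 and FPGS -0.35 with 1 normoxia library left out, number 4 for ALDH1L1 and number 49 for FPGS. In glycine cleavage and use, 1 of 4 was positive, with DMGDH, the mitochondrial dimethylglycine dehydrogenase, at -0.57 ± 0.290 (-0.54 ± 0.254 with the block) and DLD, the lipoamide dehydrogenase shared with other complexes, at -0.25 ± 0.336. DMGDH was -0.85 within lane 7 and -0.043 within lane 8, and DLD -0.027 without normoxia 110. In serine and glycine transport and use, 3 of 11 were positive, and SLC38A2, an amino acid transporter gene, had -0.34 ± 0.224 and SPTLC1, a subunit of serine palmitoyltransferase, -0.31 ± 0.267. SLC38A2 was -0.44 within lane 7 and -0.11 within lane 8.

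In the methionine cycle and transsulfuration, 1 of 7 was positive, with MAT1A, a methionine adenosyltransferase gene, at -0.53 ± 0.308 (SE) and AHCYL1 at -0.38 ± 0.305. In purine synthesis, 1 of 5 was positive, with PAICS at -0.19 ± 0.254 and GMPS at -0.13 ± 0.310. PAICS stood at 0.14 within lane 8 and GMPS at 0.030 within lane 7. Among the 40 tested list genes the highest log2 fold change was the 0.26 of EIF2AK3. The other 31 list genes with a row had too few reads for a fold change. MAT2B, a regulatory subunit gene of methionine adenosyltransferase, was the 1 of these 31 in which the groups did not overlap, and it is named after its values were seen. It had 43 reads over the hypoxia libraries and 25 over the normoxia libraries, or 13.7 to 21.8 CPM in hypoxia and 2.37 to 12.3 CPM in normoxia. Single libraries held 5 to 12 reads in hypoxia and 1 to 8 in normoxia, so the separation rests on few reads. Of all tested genes 0.0421% had every hypoxia library above every normoxia library. That share was not taken over genes with too few reads, so nothing is read from MAT2B.

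**Figure D5:**
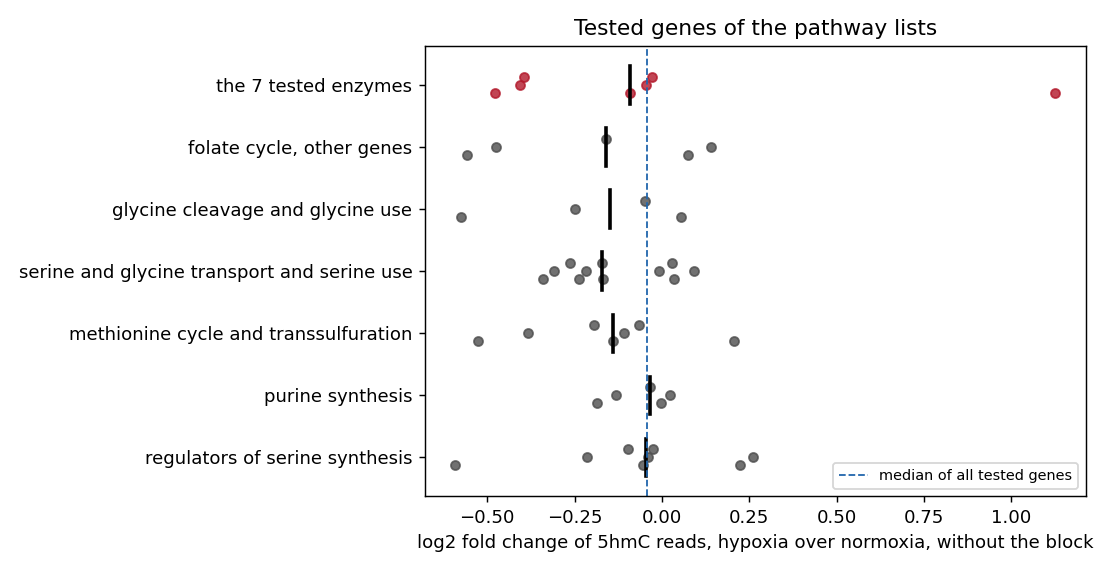
Log2 fold change of 5hmC reads, hypoxia over normoxia without the block, for the 7 tested enzymes (top) and the 40 tested genes of the 6 pathway lists. Each point is a gene, black bars are list medians and the dashed line is the median of all tested genes, -0.043. The point at 1.13 is SHMT2.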

How the data were processed

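For each library the authors deposited raw read counts by gene symbol from HTSeq. The tools in the submitters' processing notes, edgeR, HTSeq, Picard, MACS2 and Bowtie2, carry no version. The genome build, annotation, feature type and strand setting were not given in the sources used here, so counts may leave out introns, and levels are not compared between genes. The peak lists and the input sample were not used here.

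Library sizes and tests excluded rows without a gene name. These held 88 to 93% of reads outside any counted feature, 4.12 to 10.3% of low alignment quality and 0.0050 to 0.0095% marked ambiguous. Of 27339 gene rows 26838 matched a RefSeq symbol. In all 66 pairs of libraries the counts differed beyond sampling noise, with a chi-square of at least 1.34 per degree of freedom.

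Under R 4.3.3, counts were tested in edgeR 4.0.16 (TMM, glmQLFit and glmQLFTest) after filterByExpr kept genes with a count of about 10 in 6 libraries and a total of 15, with a threshold of 0.05 on the Benjamini-Hochberg adjusted p. SE was obtained by dividing the log2 fold change by the square root of F. Genes under the filter were described by their reads. Alternatives were the block, other scalings, no filter, DESeq2 1.42.0, the lane, and left-out libraries.

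After group means were removed, libraries of the same title number correlated across genes at 0.136 to 0.478, all above 0.1, and the numbers were treated as pairs, although in 2 of 6 numbers the hypoxia library correlated better with another. Nothing states separate animals, so the spread behind each p-value may be technical. Without the block it is the spread between libraries of a group. With the block it is what remains after title number and oxygen level are fitted. Members and lists were chosen with earlier results of these data known. Named were the 10 enzymes, the 5 genes most like SHMT2, and from each list the 2 smallest p and any blocked p under 0.05. The neighbours were added after the data were seen.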

Additional observations from a re-analysis of the deposited data

Results flagged for a closer look

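In 5 of 62 groups of 6 libraries looked at, 1 library lay far from the rest by Dixon's 95% criterion, which chance meets in about 1 in 20 groups. PSAT1 had 126 CPM in normoxia 21, where the next normoxia library had 47.5. ALDH1L2 had 149 CPM in hypoxia 110, where the next hypoxia library had 118. Of the genes around and beyond the enzymes, AHCYL1 had 21.6 CPM in hypoxia 16 (next 41.2), GMPS 11.7 CPM in normoxia 16 (next 40.4) and STAC3 8.23 CPM in hypoxia 21 (next 32.2). Normoxia 21 is the library with the fewest gene reads, 263578.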

How the results depend on the processing

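With the replicate block, 4 genes and 1 enzyme (SHMT2, log2 fold change 1.15) were called, where 0 were without it. The same numbers of genes and enzymes came with the block and library size only (SHMT2 1.20) or DESeq2's size factors (1.15), and 9 genes and 1 enzyme with the block and no filter (1.18). With the block and all reads as library size, 0 were called. Leaving out libraries, 0 to 12 genes and 0 to 1 enzymes were called, with SHMT2 at 0.98 to 1.38. No pathway gene was called under any alternative run. Between title numbers 1520 genes were called, 2303 without a filter and 884 to 1935 with a number left out, and 0 to 2 enzymes, SHMT2 counted in, 0 with library size only. The causes were not tested.

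Values near 0 changed sign. GLDC was 0.018 with library size only, 0.0039 with the block as well, and 0.034 in lane 8. LRP1 was 0.077 with the replicate block, 0.0060 with library size only, 0.12 with both, 0.076 with the block and DESeq2's size factors, 0.096 with the block and no filter, 0.072 with the block and all reads, 0.035 with lane as a covariate and 0.30 in lane 7. In lane 7 MTHFD1 was 0.054, MTHFD2 0.26 and GMPS 0.030, and in lane 8 MTHFD1L 0.12, PAICS 0.14 and STAC3 0.021. MTHFD2 was 0.0073 with the block and library size only. With libraries left out MTHFD1 ran from -0.22 to 0.051, MTHFD2 from -0.17 to 0.18, GLDC from -0.15 to 0.050, PAICS from -0.28 to 0.050, LRP1 from -0.20 to 0.28 and STAC3 from -0.24 to 0.11. Reads limit PHGDH, PSPH and SHMT1 most.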
